A study of Mus musculus with 24 samples.

Results

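The miRNA genes Mir881, Mir871 and Mir880 are 3 X-linked hairpin genes of the mouse, and each is listed in the deposited count table with a 5p and a 3p mature arm. The members were taken by name as mmu-miR-881-3p, mmu-miR-881-5p, mmu-miR-871-3p, mmu-miR-871-5p, mmu-miR-880-3p and mmu-miR-880-5p, which are 6 of the 1978 mature miRNAs in the table. The small RNA libraries were made from fractions enriched for pachytene/diplotene spermatocytes, which are cells in meiotic prophase, and from round spermatids, the haploid cells that follow meiosis. The fractions came from male mice on a C57BL/6J background aged 10 to 15 weeks that were Ago413+/+, Ago413+/- or Ago413-/-. The Ago413 allele is a constitutive deletion of 3 neighbouring Argonaute genes that removes Ago1 entirely and parts of Ago3 and Ago4, so every cell of the animal carries it and Ago2 remains. Each of the 6 groups had 4 libraries, each from fractions pooled from the testes of 2 to 5 mice and separated on a density gradient to a purity above 70% by microscopy, so that other testis cells were present in each pool. The loss of the Argonaute genes could not be checked in these libraries, because the table holds miRNAs alone. The libraries held between 182904 and 1072637 counts assigned to miRNAs.

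A miRNA gene is transcribed as a hairpin that is processed to a short duplex, and an Argonaute protein usually keeps one strand of the duplex and discards the other, so that the arms of 1 hairpin can differ widely in level. The seed, bases 2 to 8 from the 5′ end, does most of the pairing with target mRNAs. The 3 hairpins belong to the miR-506 family, a group of rapidly evolving X-linked miRNAs that are abundant in the testis and lie in clusters. The X chromosome is transcriptionally silenced in spermatocytes during meiosis, and X-linked miRNAs have been studied for their expression through that stage.

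The mature sequences of all 6 members are printed because the arms differ in seed, and because 4 of them were counted and 2 were not. They are RefSeq sequences on GRCm38.p6, with the seed in capitals and the rest in lower case.
mmu-miR-881-3p: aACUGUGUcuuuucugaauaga
mmu-miR-881-5p: cAGAGAGAuaacagucacaucu
mmu-miR-871-3p: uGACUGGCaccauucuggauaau
mmu-miR-871-5p: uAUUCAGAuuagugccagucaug
mmu-miR-880-3p: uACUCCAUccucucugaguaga
mmu-miR-880-5p: uACUCAGAuugauaugaguca

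All 6 names matched RefSeq entries of 21 to 23 bases. No seed was shared between members. The seed of mmu-miR-871-5p was also that of mmu-miR-743a-5p, a family member encoded nearby, and the other 5 seeds matched no other mouse miRNA in the RefSeq table. Across the whole arm, mmu-miR-881-3p and mmu-miR-880-3p were identical at 15 bases (68.2%) in a global alignment, mmu-miR-871-3p and mmu-miR-880-3p at 14 (60.9%), and mmu-miR-881-3p and mmu-miR-871-3p at 13 (56.5%). Among the 5p arms, miR-871 and miR-880 were the closest pair at 65.2% identity, and miR-881 and miR-871 the least alike at 52.2%.

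The hairpins from which these arms are processed are shown next, with both mature arms in capitals (5p first), since the counts of the arms are compared within each one.
Mir881: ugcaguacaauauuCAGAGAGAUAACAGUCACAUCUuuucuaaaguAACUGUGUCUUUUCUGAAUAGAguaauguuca
Mir871: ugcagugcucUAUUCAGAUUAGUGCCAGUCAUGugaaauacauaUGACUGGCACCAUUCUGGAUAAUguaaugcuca
Mir880: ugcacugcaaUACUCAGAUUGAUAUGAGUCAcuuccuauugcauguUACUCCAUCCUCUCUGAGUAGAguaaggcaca

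On GRCm38.p6, Mir880 lies at chrX:66800530-66800607, Mir881 at chrX:66801944-66802021 and Mir871 at chrX:66810428-66810504, all on the minus strand. The hairpins are 77 or 78 bases long, and 10, 15 and 11 bases separate the arms of Mir881, Mir880 and Mir871. The span of all 3 is 9.975 kb, with 1336 bases between Mir880 and Mir881 and 8406 bases between Mir881 and Mir871. Mir878 lies between Mir880 and Mir881. In GENCODE M21 none of the hairpins overlapped another gene, so they are intergenic, and the nearest protein-coding genes were Slitrk2 at 139 kb and Gm1140 at 872 kb. A further 16 miRNA genes lay within 100 kb of the 3 hairpins.

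The arms of these hairpins were recovered very unequally, and for miR-881 and miR-880 only the 3p arm was counted. mmu-miR-881-5p and mmu-miR-880-5p were listed at 0 in all 24 libraries. mmu-miR-881-3p took 1236530 counts over the same libraries, with 13424 to 160868 in each. mmu-miR-880-3p took 32316 counts, with 161 to 3471 in each. Whether these zeros reflect absence of the arm in the cells or the step that assigned reads to miRNAs cannot be told from the count table, so what follows bounds the deposited counts and not the arm levels. With a floor of 3 counts over all libraries, the 3p count was at least 412177-fold higher than the 5p count for miR-881 and at least 10772-fold higher for miR-880. A count of 0 allows a 5p share of up to 0.000243% of the miR-881 counts and 0.00928% of the miR-880 counts, and these limits cover counting error only.

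miR-871 differed from both, since its arms were each counted in every library. mmu-miR-871-5p took 58136 counts and mmu-miR-871-3p 404551, a 6.96-fold excess of the 3p arm that ranged from 3.47-fold to 29.4-fold between libraries. The 5p arm therefore held 12.6% of the counts of this hairpin. Arms were paired only for the 773 hairpins whose 5p and 3p arms are listed under the same hairpin name. This leaves out some abundant miRNAs, such as let-7a and miR-16. Of 72 paired hairpins with at least 10000 counts on the more abundant arm, 4 had the other arm at 0, which were miR-881, miR-880, miR-328 and miR-101b. By the counts of the detected arm, miR-881 and miR-880 stood first and second among the 239 paired hairpins with 1 arm at 0. Among the 11 other miR-506 family hairpins of that abundance, the excess of the major arm ran from 1.04-fold (miR-465a) to 963-fold (miR-547), and none had an arm at 0. The low end is uncertain, since the 3p counts of miR-465a (45679), miR-465b (91357) and miR-465c (90846) may hold shared reads. Why the 5p arms were at 0 was not tested.

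**Figure D1:**
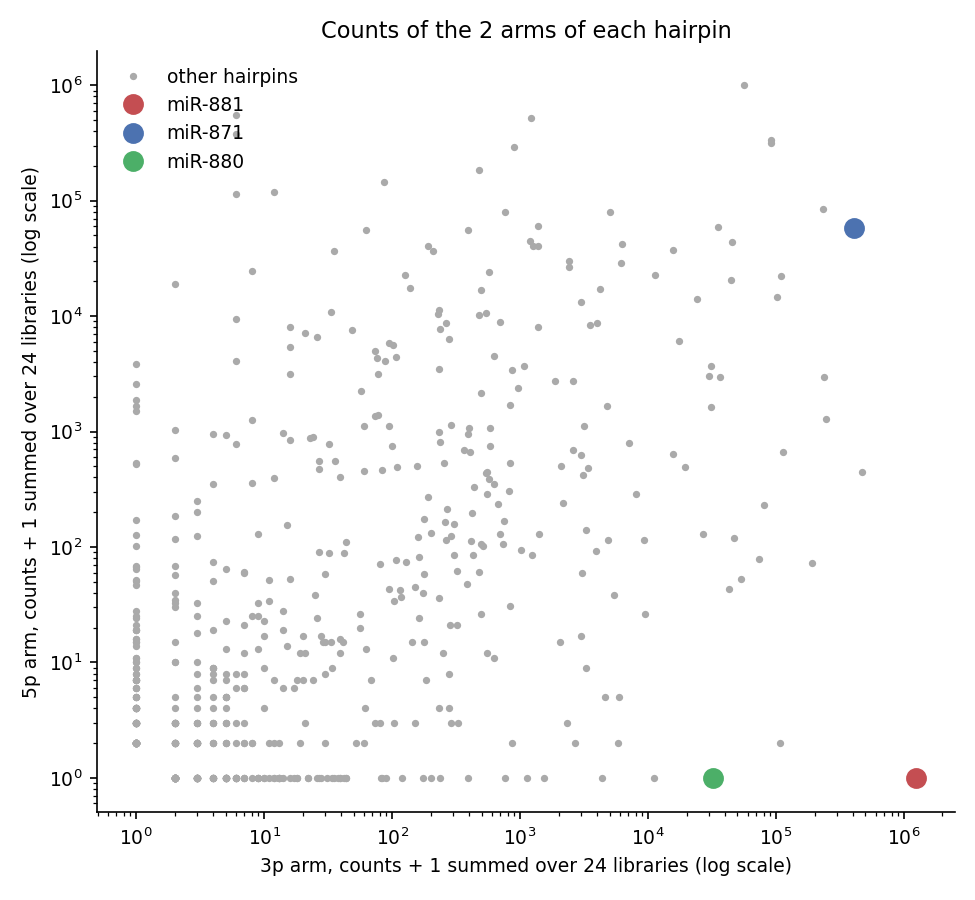
Counts of the 3p arm (horizontal axis) and the 5p arm (vertical axis) of each counted hairpin with both arms listed under the same name. Counts are summed over 24 libraries with 1 added, on log scales, and grey points are the other hairpins. miR-881 (1236530 counts on 3p) and miR-880 (32316) lie on the floor of the 5p axis, while miR-871 has 58136 counts on 5p and 404551 on 3p.

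Of the 4 counted members, mmu-miR-881-3p was the most abundant by far. Levels are given as CPM, the count of a miRNA at a common library size, after scaling by trimmed mean of M values (TMM) within each cell type. mmu-miR-881-3p was the first or second most abundant of all miRNAs in each of the 6 groups, at 86637 ± 16060 CPM in Ago413+/+ spermatocytes and 79932 ± 11052 CPM in Ago413+/+ round spermatids (SD, n = 4). mmu-miR-871-3p was at 30231 ± 2969 CPM and 45461 ± 13928 CPM in those groups, and ranked between the third and the twelfth place over all groups. mmu-miR-871-5p was at 4704 ± 334 CPM and 5197 ± 757 CPM, and mmu-miR-880-3p at 1973 ± 748 CPM and 2757 ± 2034 CPM. Together the members held 13.1% ± 0.976 of all counts in Ago413+/+ spermatocytes and 14.0% ± 0.834 in Ago413+/+ round spermatids, and from 12.1% to 14.9% in the means of the other groups. A level set against that of another arm includes any difference in how readily each sequence was ligated and amplified, which was not measured.

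**Figure D2:**
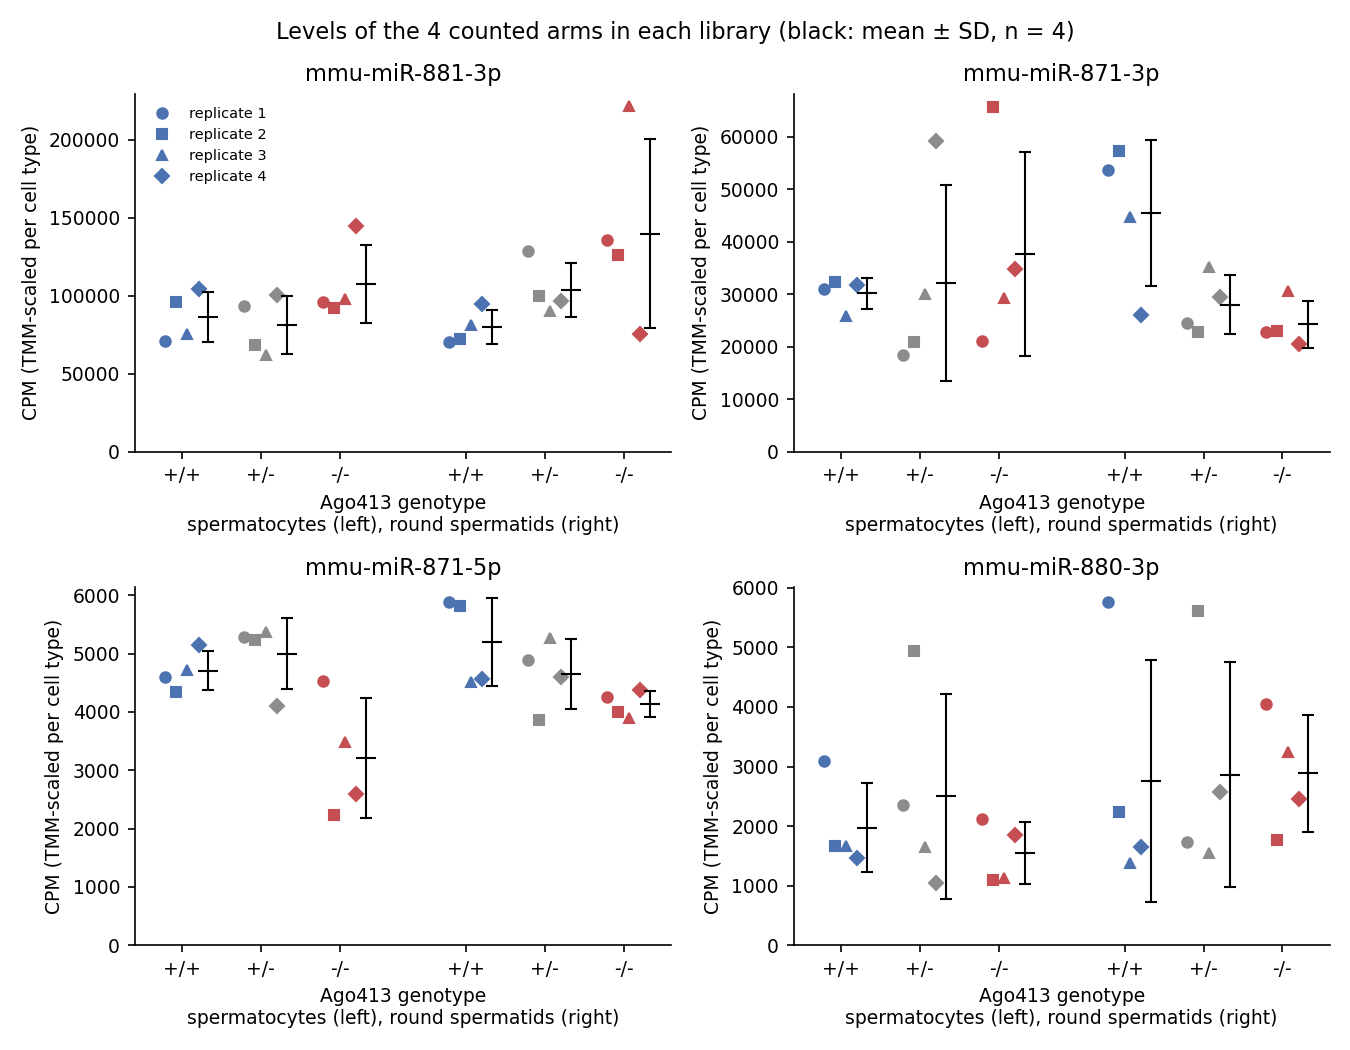
CPM, TMM-scaled within each cell type, of the 4 counted arms in each library by Ago413 genotype; coloured symbols are replicates 1 to 4 and black bars the mean ± SD (n = 4). In round spermatids mmu-miR-871-3p spans 26111 to 57287 CPM in Ago413+/+ and 20521 to 30675 CPM in Ago413-/-, and mmu-miR-880-3p has a single high library in several groups.

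In round spermatids, loss of the Argonaute genes went with a lower level of mmu-miR-871-3p. In Ago413+/+ round spermatids the 4 libraries measured 53658, 57287, 44788 and 26111 CPM. In Ago413+/- round spermatids they measured 24615, 22809, 35273 and 29512 CPM. In Ago413-/- round spermatids they measured 22879, 23020, 30675 and 20521 CPM. The first 3 Ago413+/+ libraries lay above every library of the other genotypes, and replicate 4 lay among them, so that the Ago413+/+ and Ago413-/- groups overlapped through this 1 library. The same groups did not overlap when the counts were scaled by library totals alone. By edgeR's quasi-likelihood test, adjusted over 426 miRNAs by the Benjamini-Hochberg method, mmu-miR-871-3p fell by 0.91 on the log2 scale in Ago413-/- against Ago413+/+ (SE 0.24, adjusted p = 0.0130). The decrease kept an adjusted p under 0.05 in all 9 other settings and in each of the 8 fits that left out 1 library. Its log2 fold change lay between -1.24 and -0.88 in the fits without 1 library, and was -1.24 without Ago413+/+ replicate 4.

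mmu-miR-881-3p moved the opposite way, less firmly. Ago413+/+ round spermatids measured 70726, 72611, 81427 and 94962 CPM. Ago413+/- round spermatids measured 128851, 99984, 89979 and 96617 CPM. Ago413-/- round spermatids measured 135673, 126153, 221759 and 75699 CPM. Of the Ago413-/- libraries 3 were above all Ago413+/+ libraries, 1 of them far above, and replicate 4 lay within the Ago413+/+ range. The log2 fold change in Ago413-/- against Ago413+/+ was 0.81 (SE 0.25, adjusted p = 0.0299 in edgeR's quasi-likelihood test). The call did not hold in any of the 9 other settings, where the log2 fold change was 0.53 to 0.75 and the adjusted p 0.0538 to 0.171. It held in 2 of the 8 fits without 1 library, those without Ago413-/- replicate 2 (adjusted p = 0.0381) or replicate 4 (adjusted p = 0.00918). Without Ago413-/- replicate 3 the log2 fold change was 0.49 (adjusted p = 0.126). The call was also lost without Ago413-/- replicate 1 (adjusted p = 0.117), and without Ago413+/+ replicate 1, 2, 3 or 4 (adjusted p = 0.220, 0.178, 0.0542 and 0.0816).

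**Figure D3:**
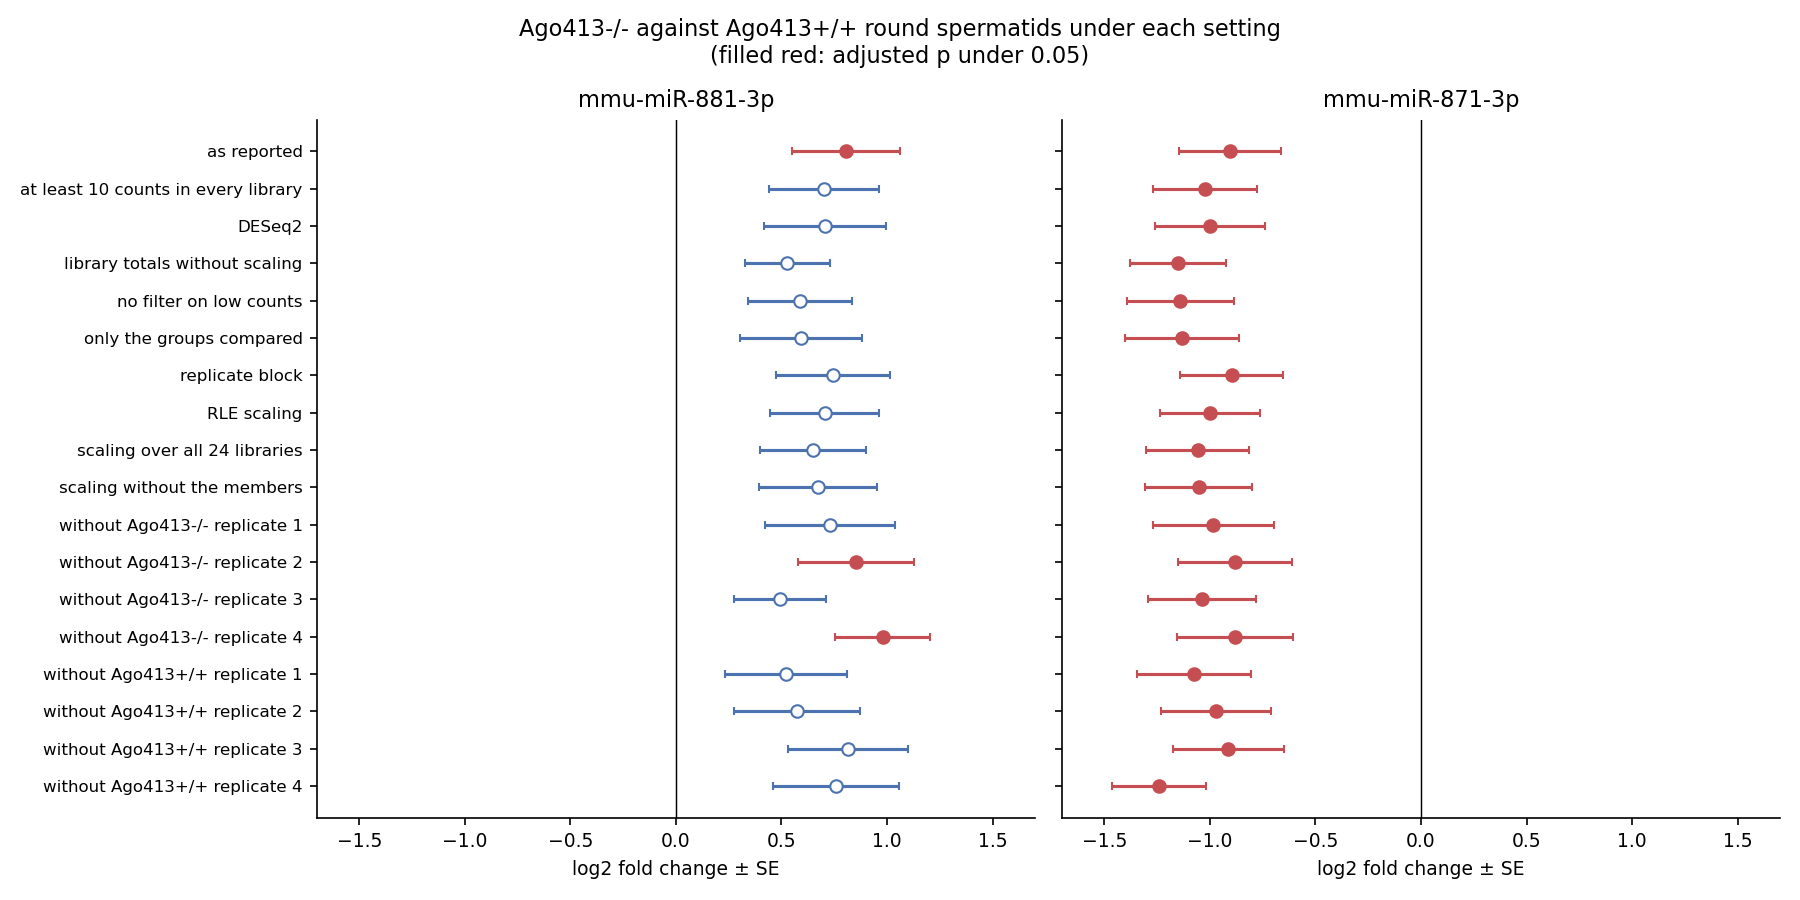
Log2 fold change ± SE in Ago413-/- against Ago413+/+ round spermatids under each setting and with each library left out; filled red points have an adjusted p under 0.05. mmu-miR-871-3p is filled in every line, from -1.24 to -0.88, whereas mmu-miR-881-3p is filled in 3 lines, the reported value of 0.81 and 2 of the fits without 1 library.

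The remaining counted arms did not pass in this comparison. mmu-miR-871-5p was at 5888, 5815, 4520 and 4565 CPM in Ago413+/+ and at 4261, 3992, 3896 and 4375 CPM in Ago413-/- round spermatids. These groups did not overlap, although the gap was small and they did overlap when the counts were scaled by library totals alone. Its log2 fold change was -0.33 (SE 0.18, adjusted p = 0.205), and DESeq2 gave -0.42 with an adjusted p of 0.0391. mmu-miR-880-3p was at 5762, 2233, 1378 and 1656 CPM in Ago413+/+ and at 4057, 1770, 3251 and 2460 CPM in Ago413-/-, with a log2 fold change of 0.07 (SE 0.46, adjusted p = 0.943).

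Thus 2 of the 4 tested members passed, 1 in each direction, where 101 of all 426 miRNAs tested did (23.7%). Of these 101, 53 were higher and 48 lower, and this split depended on scaling, with 44 and 57 under relative log expression (RLE) scaling and 27 and 62 under library totals. It also rested on single libraries, with 11 higher and 62 lower without Ago413+/+ replicate 1, and 19 higher and 45 lower without Ago413-/- replicate 1. With no library left out, that median was 0.13, 0.03 and -0.09 under TMM, RLE and library totals. Relative to the median, mmu-miR-871-3p was lower and mmu-miR-881-3p higher under each of these 3 scalings. In these bulk fractions fewer cells of a type and less miRNA per cell cannot be told apart.

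Markers of several other testis cell types stood higher in the Ago413-/- than in the Ago413+/+ round spermatid fractions. The summed CPM of miR-202-5p and miR-202-3p, markers of Sertoli cells and gonadal soma, was 2127 to 7934 in Ago413+/+ and 9239 to 16738 in Ago413-/-. The summed CPM of the 3 spermatogonial markers was 5148 to 8575 in Ago413+/+ and 9214 to 11778 in Ago413-/-. That sum was mostly miR-21a-5p, at 114062 counts over 24 libraries, beside 492 of miR-221-3p and 277 of miR-222-3p. For the 2 leukocyte markers the sums were 30.2 to 44.5 and 77.8 to 108, and for the 2 endothelial markers 435 to 1931 and 2011 to 6137. None of these 4 lists overlapped between Ago413+/+ and Ago413-/- with the scaling within the cell type. How many of all miRNAs also failed to overlap there was not counted. The endothelial ranges came close, at 1931 and 2011, and overlapped with all 24 libraries scaled together. The other lists were not compared under that scaling. In Ago413+/- round spermatids the spermatogonial sum (9225 to 14647) and the leukocyte sum (47.5 to 213) also lay above all Ago413+/+ libraries. The endothelial sum (840 to 1195) and the miR-202 sum (2885 to 8122) there overlapped with Ago413+/+. Between Ago413+/+ and Ago413-/- the lists for blood (48.0 to 427 and 105 to 4959), peritubular cells (902 to 8291 and 2093 to 3522) and meiotic and post-meiotic germ cells (57500 to 105741 and 72538 to 136888) overlapped. Every marker of the 7 lists was counted in both groups. In spermatocytes all 7 lists overlapped between Ago413+/+ and Ago413-/-. The mean log2 sums there differed by -0.84 (meiotic and post-meiotic germ cells) to 1.19 (blood) in Ago413-/- against Ago413+/+. The part of the marked cell types in the results on the members was not tested.

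The balance between mmu-miR-871-3p and mmu-miR-881-3p does not depend on how libraries are scaled. In Ago413+/+ round spermatids there were 75.9, 78.9, 55.0 and 27.5 counts of mmu-miR-871-3p for each 100 of mmu-miR-881-3p. In Ago413+/- round spermatids there were 19.1, 22.8, 39.2 and 30.6. In Ago413-/- round spermatids there were 16.9, 18.2, 13.8 and 27.1. All Ago413-/- libraries were below all Ago413+/+ libraries, with a margin between 27.1 and 27.5 that rested on replicate 4 of each group. The ratio was 2.98-fold lower in Ago413-/- (difference of log2 means -1.57, SE 0.41, exact two-sided permutation p = 0.0286, the smallest p that 4 against 4 libraries allow). After Benjamini-Hochberg adjustment over the 45 exact permutation tests on ratios and shares the p was 0.551, so it did not pass. At that smallest p, passing would have needed most of the 45 tests to reach it. The adjusted p therefore cannot decide whether the ratio differed. For Ago413+/- against Ago413+/+ the difference was -1.03 (SE 0.42, exact permutation p = 0.0857, adjusted p = 0.551). In spermatocytes the ratio of Ago413-/- to Ago413+/+ differed by -0.11 (SE 0.40, exact permutation p = 0.886, adjusted p = 0.927).

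**Figure D4:**
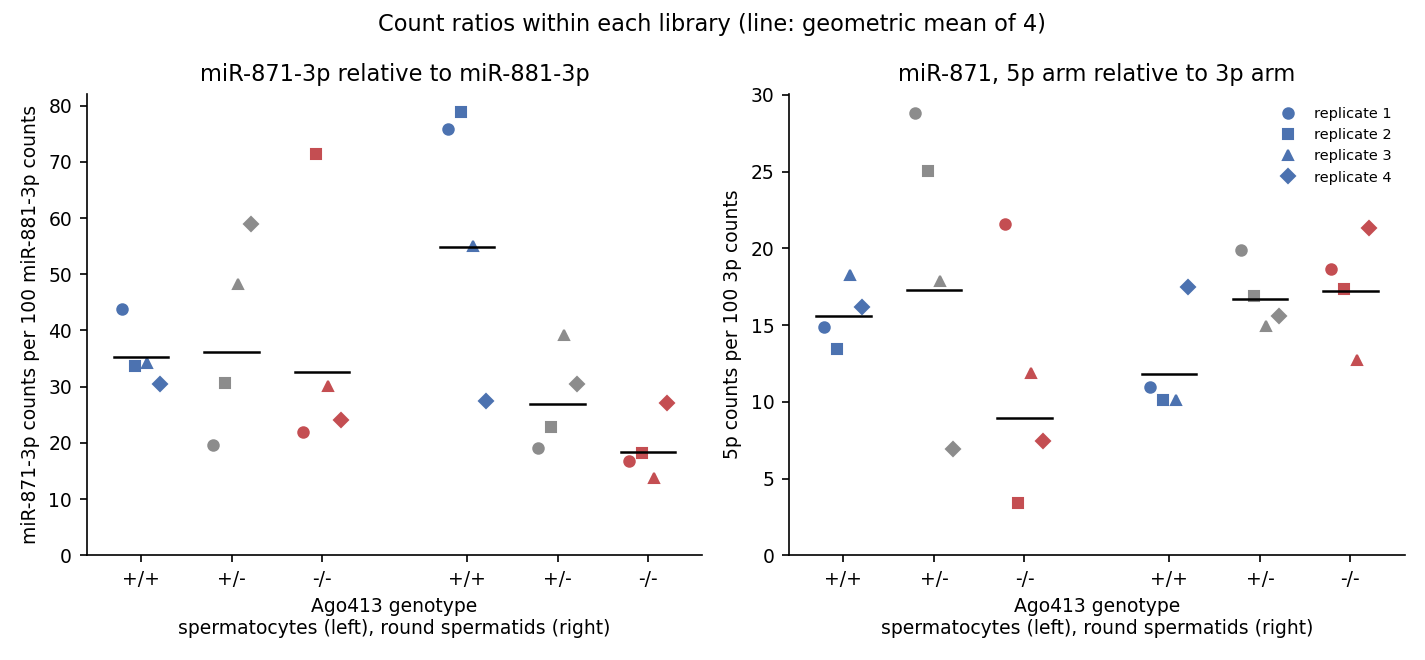
Left, counts of miR-871-3p for each 100 counts of miR-881-3p in each library; right, counts of miR-871-5p for each 100 counts of miR-871-3p; symbols are replicates 1 to 4 and lines the geometric mean of each group. In round spermatids the left ratio lies at 27.5 or above in Ago413+/+ and at 27.1 or below in Ago413-/-.

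The arms of miR-871 were compared with each other in the same way. In Ago413+/+ round spermatids there were 11.0, 10.2, 10.1 and 17.5 counts of the 5p arm for each 100 of the 3p arm, and in Ago413-/- 18.6, 17.3, 12.7 and 21.3. The groups overlapped, and the difference of log2 means was 0.54 (SE 0.25, exact permutation p = 0.0857, adjusted p = 0.551). In spermatocytes the ratio was 14.9, 13.5, 18.2 and 16.2 in Ago413+/+ and 21.6, 3.41, 11.9 and 7.43 in Ago413-/-. The difference there was -0.80 (SE 0.57, exact permutation p = 0.257, adjusted p = 0.609). No test on the ratios or on the share of counts held by the members passed after adjustment. With 4 against 4 libraries a test could pass only if most of the 45 tests reached the smallest p, 0.0286. The adjusted p-values therefore cannot show that the ratios or the share were unchanged.

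In spermatocytes no member passed in any comparison of genotypes. mmu-miR-871-3p was at 31036, 32259, 25843 and 31788 CPM in Ago413+/+ spermatocytes, a narrow group. It was at 18368, 20931, 30080 and 59153 CPM in Ago413+/- and at 21033, 65644, 29371 and 34853 CPM in Ago413-/- spermatocytes, where the 1 high library in each group widened the spread. Its log2 fold change in Ago413-/- against Ago413+/+ was 0.32 (SE 0.39, adjusted p = 0.654 in edgeR's quasi-likelihood test), and -0.08 without Ago413-/- replicate 2.

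mmu-miR-881-3p measured 70769, 95814, 75571 and 104393 CPM in Ago413+/+, 93621, 68292, 62355 and 100312 CPM in Ago413+/- and 95776, 92023, 97773 and 144527 CPM in Ago413-/- spermatocytes. The groups overlapped, and the log2 fold change in Ago413-/- against Ago413+/+ was 0.31 (SE 0.26, adjusted p = 0.506). mmu-miR-871-5p measured 4608, 4346, 4714 and 5149 CPM in Ago413+/+ and 4539, 2235, 3482 and 2587 CPM in Ago413-/- spermatocytes. Of the Ago413-/- libraries 3 were below the Ago413+/+ range, and the log2 fold change was -0.55 (SE 0.28, adjusted p = 0.252). mmu-miR-880-3p had a log2 fold change of -0.35 (SE 0.44, adjusted p = 0.667). None of the 4 tested members was among the 18 of 404 miRNAs that passed (4.46%).

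The Ago413+/- samples gave no member past the threshold either. In Ago413+/- against Ago413+/+ round spermatids, which used the same controls, mmu-miR-871-3p had a log2 fold change of -0.70 (SE 0.24, unadjusted p = 0.00991 in edgeR, adjusted p = 0.192) and mmu-miR-881-3p one of 0.38 (SE 0.25, adjusted p = 0.478). There edgeR called 0 of 426 miRNAs (0%), with 68 at an unadjusted p under 0.05, and DESeq2 called 6. In Ago413+/- against Ago413+/+ spermatocytes the 4 members lay between -0.09 and 0.34 in log2 fold change, and edgeR called 0 of 404 miRNAs (0%), with 13 at an unadjusted p under 0.05 and 0 by DESeq2. Between Ago413-/- and Ago413+/- round spermatids none of the 4 members passed, where 81 of 426 miRNAs did (19%). The members' log2 fold changes there, taken as Ago413-/- against Ago413+/-, lay between -0.21 and 0.43. In Ago413-/- against Ago413+/- spermatocytes mmu-miR-871-5p had a log2 fold change of -0.64 (SE 0.28, adjusted p = 0.184 by edgeR), 9 of 404 miRNAs passed (2.23%), and DESeq2 gave mmu-miR-871-5p -0.70 with an adjusted p of 0.0486.

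**Figure D5:**
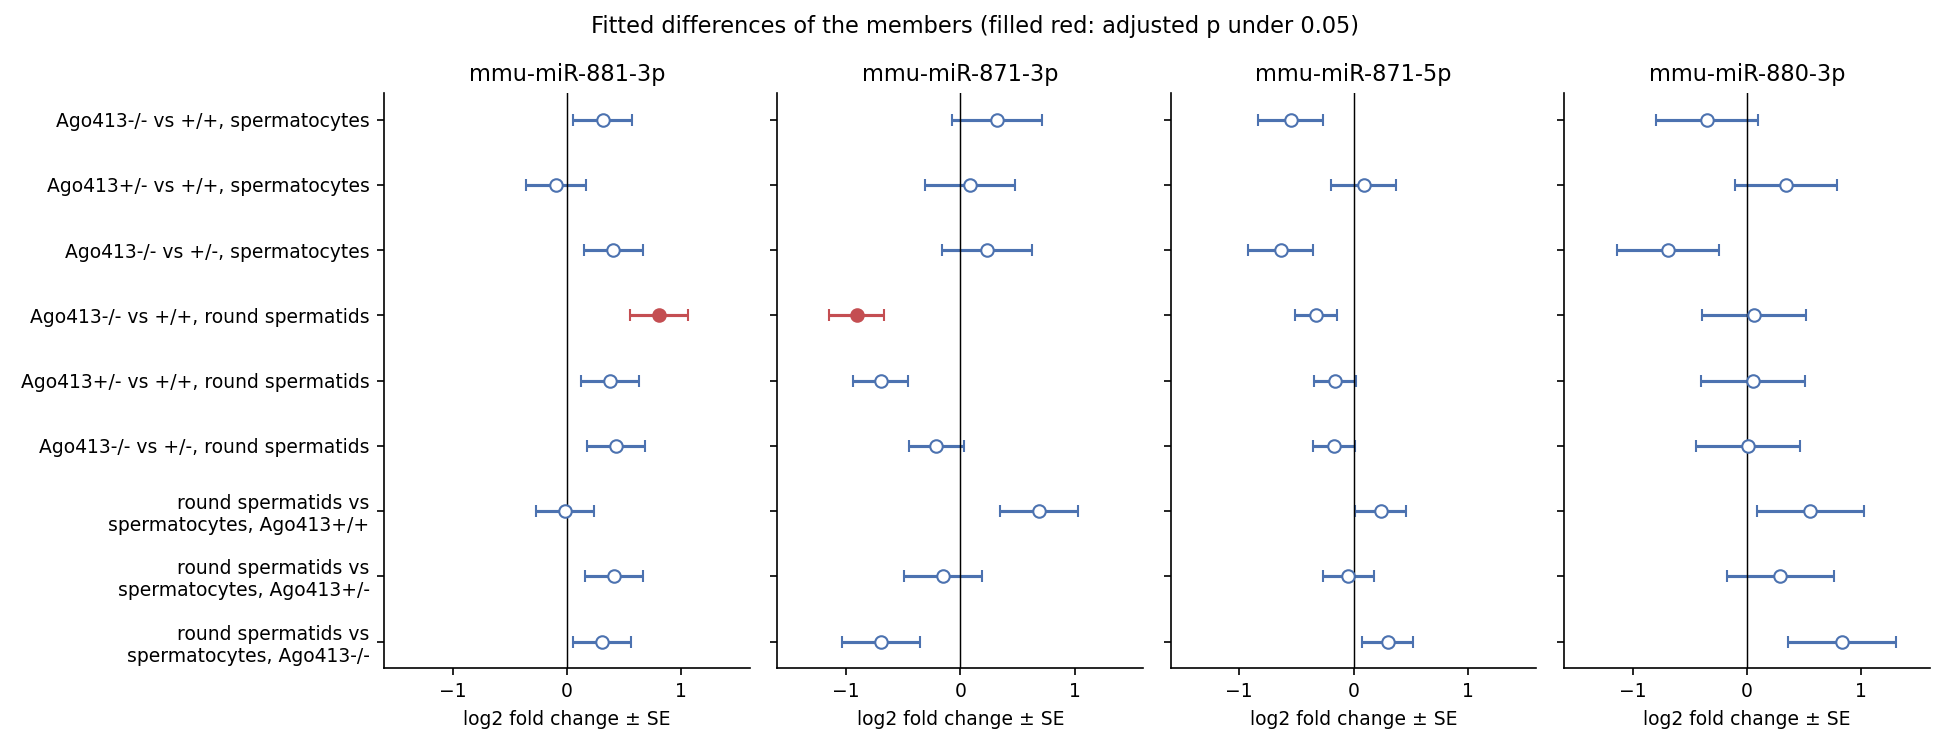
Log2 fold changes ± SE (horizontal axis) of the 4 tested members in the 9 comparisons of genotypes and cell types; filled red points have an adjusted p under 0.05 in edgeR's quasi-likelihood test. The only filled points are mmu-miR-881-3p at 0.81 and mmu-miR-871-3p at -0.91 in Ago413-/- against Ago413+/+ round spermatids.

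Between the cell types the members were also not separated by the test. In Ago413+/+ cells the log2 fold change of round spermatids against spermatocytes was 0.69 for mmu-miR-871-3p (SE 0.34), 0.55 for mmu-miR-880-3p (SE 0.47), 0.24 for mmu-miR-871-5p (SE 0.22) and -0.02 for mmu-miR-881-3p (SE 0.25), each with an adjusted p of 0.996. edgeR called 0 of 450 miRNAs there (0%), with 10 at an unadjusted p under 0.05 and 0 by DESeq2. In Ago413+/- cells edgeR again called 0 of 450 (0%), with 15 at an unadjusted p under 0.05 and 0 by DESeq2, and the largest difference of a member was 0.41 for mmu-miR-881-3p. In Ago413-/- cells 22 of 450 miRNAs passed (4.89%) and no member did. There mmu-miR-871-3p was at -0.69 (SE 0.34, adjusted p = 0.180) and mmu-miR-880-3p at 0.84 (SE 0.47, adjusted p = 0.260).

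The difference between cell types in the effect of genotype was tested as an interaction. For mmu-miR-871-3p it was -1.38 on the log2 scale (SE 0.48, unadjusted p = 0.00798, adjusted p = 0.381 in edgeR's quasi-likelihood test), and for the other 3 tested members it lay between 0.06 and 0.32. edgeR called 0 of 450 miRNAs (0%), with 55 at an unadjusted p under 0.05 and 0 by DESeq2. The interaction of mmu-miR-871-3p thus did not pass after adjustment.

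With all 24 libraries scaled together, the order of the groups also differed between members. mmu-miR-881-3p was highest in Ago413-/- round spermatids and lowest in Ago413+/- spermatocytes, and mmu-miR-871-3p was highest in Ago413+/+ and lowest in Ago413-/- round spermatids. mmu-miR-871-5p was highest in Ago413+/+ round spermatids and lowest in Ago413-/- spermatocytes, and mmu-miR-880-3p was highest in Ago413+/- round spermatids and lowest in Ago413-/- spermatocytes. All groups next to each other in these orders overlapped, apart from the fourth and the fifth for mmu-miR-871-5p, which were Ago413+/+ spermatocytes and Ago413-/- round spermatids.

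The arms also had unequal fitted spreads between libraries. The biological coefficient of variation fitted over all 24 libraries was 0.243 for mmu-miR-871-5p, 0.282 for mmu-miR-881-3p, 0.354 for mmu-miR-871-3p and 0.466 for mmu-miR-880-3p, beside a median of 0.367 over 450 miRNAs. mmu-miR-880-3p was thus the most variable member and ranked 84 from the top. Within a genotype its highest and lowest libraries were 1.92-fold to 4.72-fold apart in spermatocytes and 2.29-fold to 4.18-fold apart in round spermatids. Its highest library carried the same replicate number in both cell types in each of the 3 genotypes, number 1 in Ago413+/+ and Ago413-/- and number 2 in Ago413+/-. For mmu-miR-881-3p and mmu-miR-871-3p the number of the highest library matched in Ago413+/+ only, 1 of the 3 genotypes. The labels do not say whether equal numbers came from the same cell suspension, though library numbers in the column names were adjacent for most such pairs.

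To describe which miRNAs followed each 3p member, the SD of the log2 ratio to it was taken over the 24 libraries for 446 others, so that a small SD marks a shared pattern. The closest to mmu-miR-881-3p were mmu-miR-878-5p (SD 0.235), mmu-miR-148a-3p (0.248) and mmu-let-7i-5p (0.265), and Mir878 is the gene that lies between Mir880 and Mir881. The closest to mmu-miR-871-3p were mmu-miR-151-3p (0.244), mmu-miR-465b-3p (0.326) and mmu-miR-465a-3p (0.326). The closest to mmu-miR-880-3p were mmu-miR-30a-5p (0.404), mmu-miR-463-3p (0.435) and mmu-miR-29a-3p (0.483). The members followed each other less closely, at 0.706 for mmu-miR-881-3p and mmu-miR-871-3p, 0.829 for mmu-miR-881-3p and mmu-miR-880-3p, and 1.01 for mmu-miR-871-3p and mmu-miR-880-3p. mmu-miR-871-3p and its own 5p arm stood at 0.667. The median SD over all miRNAs was 0.847 for mmu-miR-881-3p, 0.959 for mmu-miR-871-3p and 0.988 for mmu-miR-880-3p. All these values are from the same libraries, and low counts of either miRNA add counting error to the SD.

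The related X-linked miR-506 family miRNAs, 34 arms in the table of which 31 were tested, had 8 past the threshold in Ago413-/- against Ago413+/+ round spermatids. This share of 25.8% was near the 23.7% of all miRNAs tested. In log2 fold change, mmu-miR-201-5p (1.29), mmu-miR-547-3p (1.11), mmu-miR-465a-5p (0.73) and mmu-miR-878-5p (0.65) rose. mmu-miR-470-3p (-1.42), mmu-miR-883b-5p (-1.07), mmu-miR-743b-5p (-0.90) and mmu-miR-743a-5p (-0.75) fell. The median of the 31 was -0.05, beside 0.13 for all miRNAs tested. The counts of 4 higher and 4 lower became 3 and 7 under RLE scaling and 1 and 7 under library totals. They became 0 and 8 without Ago413+/+ replicate 1 and 0 and 6 without Ago413-/- replicate 1. The median of all miRNAs tested was then -0.04 and -0.01. Reliance of the increases on these libraries and a shift in scaling cannot be told apart. mmu-miR-743a-5p, which fell, has the seed of mmu-miR-871-5p. Among spermatocytes 0 rose and 1 fell in Ago413-/- against Ago413+/+, mmu-miR-743b-5p (-1.26), which is 3.23% of the 31 beside 4.46% of all miRNAs, with a median of -0.51 beside -0.05 for all. Against Ago413+/-, 1 fell in Ago413-/- spermatocytes and 3 rose and 5 fell in round spermatids, and none passed in the other comparisons.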

How the data were processed

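Counts of small RNA reads per mature miRNA were deposited by the authors as 1 table of raw counts for the 24 libraries. Per the study's methods, libraries made with a NEBNext small RNA kit were sequenced single-end, trimmed with Trim Galore, and quantified with miRDeep2 against miRBase mouse sequences. Mismatch limits and the treatment of reads that match several miRNAs are not given in the sources used here. Closely related arms, such as the 3p arms of miR-465a, miR-465b and miR-465c, may therefore share reads and be counted under several names. A miRNA was tested where 3 or more libraries held 10 counts or more, with edgeR 4.0.16 (quasi-likelihood, TMM) in R 4.3.3, within each cell type for genotypes and over 24 libraries for cell types, with Benjamini-Hochberg adjustment over all miRNAs tested. The script was tested on simulated counts. DESeq2 1.42.0, other scalings and filters, a replicate block and leaving out each library were alternatives. Scaling genotype contrasts over all 24 libraries was added, and the scaling within each cell type of the printed levels chosen, after the data were seen. Ratios used 0.5 added to each count and exact permutation tests. The planned tests of arm balance for miR-881 and miR-880 were not run, because their 5p arms were at 0. All 6 members were named, with the 3 miRNAs closest to each 3p member. The members, lists and tests were chosen with earlier results of these data known. No source says which mice each library pooled, so p-values measure the spread between pools. Locations came from RefSeq GRCm38.p6 and GENCODE M21, and the labels name no genome build.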

Additional observations from a re-analysis of the deposited data

Results flagged for a closer look

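In 54 groups of 4 libraries (levels, ratios and shares of the members), 5 held a library set far apart from the other 3 by Dixon's criterion, where chance gives about 1 in 20 groups, or 2.7. For mmu-miR-881-3p the Ago413-/- spermatocyte replicate 4 stood high at 144527 CPM. For mmu-miR-871-5p the Ago413+/- spermatocyte replicate 4 stood low at 4097 CPM. For mmu-miR-880-3p the Ago413+/+ spermatocyte replicate 1 stood high at 3086 CPM. For the log2 ratio of the 5p to the 3p arm of miR-871 the Ago413+/+ round spermatid replicate 4 stood high at -2.52, and for the log2 ratio of miR-880-3p to miR-881-3p the Ago413-/- spermatocyte replicate 1 stood high at -5.50. With all 24 libraries scaled together, the levels set apart were those of mmu-miR-880-3p in replicate 1 of Ago413+/+ spermatocytes (3090 CPM) and of Ago413+/+ round spermatids (5945 CPM).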

How the results depend on the processing

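The decrease of mmu-miR-871-3p in Ago413-/- against Ago413+/+ round spermatids kept an adjusted p under 0.05 in every fit, with a log2 fold change as reported that was under 1 in size. The number of members past the threshold there was 2 as reported and with DESeq2, which called mmu-miR-871-5p in place of mmu-miR-881-3p. It was 1 with at least 10 counts in every library, library totals, no filter, only the groups compared, RLE scaling, scaling over all 24 libraries or scaling without the members, 0 when a log2 fold change of 1 or more in size was also required of the reported fit (mmu-miR-871-3p met both limits in 6 of the 9 other settings and in 3 of the 8 fits without 1 library), and 1 to 2 without 1 library. In Ago413-/- against Ago413+/- spermatocytes it was 1 with DESeq2 and 0 as reported. The labels do not say that equal replicate numbers pair samples. Correlations of their deviations ran from -0.38 to 0.46 across genotypes within a cell type. Across cell types within a genotype they ran from -0.16 to 0.43, above 0 in 9 of 12 pairs and above 0.1 in 6. Library numbers in the column names were adjacent for most of these pairs, and the labels do not explain the numbers. A pairing of the cell types was thus neither shown nor excluded, and the reported fits did not use it. If libraries were paired, the tests between cell types and of the interaction ignored it. With these pairs as blocks, 17 of 450 miRNAs passed between cell types in Ago413-/- in place of 22, and no member did. With the number as a replicate block 1 member was called in Ago413-/- against Ago413+/+ round spermatids, with 86 miRNAs called in place of 101. In Ago413-/- against Ago413+/- round spermatids the block gave 53 in place of 81.

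Differences of members that were not called changed sign as follows, in log2 fold change. For mmu-miR-880-3p in Ago413-/- against Ago413+/+ round spermatids the values were -0.057 (at least 10 counts in every library), -0.0070 (DESeq2), -0.20 (library totals), -0.13 (no filter), -0.13 (only the groups compared), -0.0067 (RLE), -0.067 (24-library scaling) and -0.066 (without the members), and -0.23 to 0.47 without 1 library. In Ago413-/- against Ago413+/- round spermatids they were -0.11, -0.091, -0.25, -0.13, -0.075, -0.091, -0.081 and -0.11 in the same order, and -0.27 to 0.56 without 1 library. In Ago413+/- against Ago413+/+ it was -0.00036 with no filter and -0.50 to 0.60 without 1 library in round spermatids, and -0.33 to 0.64 without 1 library in spermatocytes. For mmu-miR-880-3p between cell types, leaving out 1 library gave -0.071 to 0.86 in Ago413+/+, -0.34 to 0.83 in Ago413+/-, and -0.029 to 0.91 for the interaction. For mmu-miR-871-3p in Ago413+/- against Ago413+/+ spermatocytes it was -0.043 with library totals, -0.042 with no filter, -0.014 with the replicate block and -0.34 to 0.18 without 1 library. Without 1 library it was -0.081 to 0.44 in Ago413-/- against Ago413+/+ spermatocytes and -0.20 to 0.69 in Ago413-/- against Ago413+/- spermatocytes. Between cell types in Ago413+/- it was 0.0097 with the block and -0.35 to 0.32 without 1 library. For mmu-miR-871-5p in Ago413+/- against Ago413+/+ spermatocytes it was -0.050 with no filter and -0.038 to 0.21 without 1 library, and between cell types in Ago413+/- -0.13 to 0.0042. For mmu-miR-881-3p it was -0.28 to 0.044 without 1 library in Ago413+/- against Ago413+/+ spermatocytes, and between cell types in Ago413+/+ 0.0014 with DESeq2, 0.0014 with RLE and -0.15 to 0.051 without 1 library. The cause was not tested.

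Counts of all miRNAs called moved by over 1.5 times in each comparison that had any. For Ago413-/- against Ago413+/+ they were 18 in spermatocytes as reported, 70 with DESeq2, 55 with no filter and 11 without Ago413+/+ replicate 2 or 3, and 101 in round spermatids, 64 without Ago413-/- replicate 1. For Ago413-/- against Ago413+/- spermatocytes they were 9, 66 with DESeq2, 40 with no filter, 4 with only the groups compared, 16 without Ago413-/- replicate 2, and 5 and 57 without Ago413+/- replicate 1 and 4. In round spermatids they were 81, 39 and 35 without Ago413-/- replicate 1 and 3, and 45 and 51 without Ago413+/- replicate 1 and 4. Between cell types in Ago413-/- they were 22, 72 with DESeq2, 43 with no filter, 35 with at least 10 counts in every library and 2 with only the groups compared. There they were 1, 5, 1 and 4 without round spermatid replicate 1, 2, 3 and 4, and 65, 1 and 4 without spermatocyte replicate 1, 2 and 4. With no filter they were 12 in Ago413+/- against Ago413+/+ round spermatids and 4 to 8 in the other comparisons with none called. Leaving out 1 library gave up to 2 in the first of these, and only the groups compared gave 1 between cell types in Ago413+/-. mmu-miR-880-3p had as few as 161 counts in a library.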
